A study of Mus musculus with 6 samples.

Results

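Solute carriers are the membrane proteins that move sugars, amino acids, ions, metals, nucleotides, bile acids and drugs across the plasma membrane and the membranes of mitochondria, the Golgi apparatus and lysosomes. They were followed here in medullary thymic epithelial cells of Aire-deficient and wild-type mice. Members were the probe sets whose single annotated gene symbol begins with Slc or Slco and a digit, leaving out Slc6a4 and Slc18a2. This rule gave 186 of 12422 probe sets and 153 of 8251 genes, and used no measured value. It also took in Slc9a3r1 and Slc9a3r2, adaptor proteins named after a sodium-proton exchanger, and Slc4a1ap, named after the anion exchanger Slc4a1. None of these 3 is a carrier.

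The Aire-deficient group consisted of 3 arrays from mice homozygous for a disrupted Aire gene, and the wild-type group of 3 arrays from mice of the same mixed B6/129 F2 background. Each array carried RNA of 1 pool, the thymi of 5 male and female animals aged 3 to 5 weeks. In both groups the cells were sorted as CD45-, G8.8+, CDR1int and B7.1hi, and their RNA was amplified in a pair of rounds by a T7 polymerase method. Which part of Aire was disrupted is not given in the labels, and they name no tissue to which the disruption was limited. Signals are in arbitrary units after quantile normalization, and an error given with a log2 difference is its SE over 3 arrays in each group. Since the arrays read bulk RNA of pools, fewer cells of a type and less RNA per cell cannot be told apart.

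Medullary thymic epithelial cells are known for transcribing, beside the genes that any cell needs, many genes otherwise limited to single organs, and Aire is known as a regulator of a share of these. Solute carriers hold both kinds. Some run in nearly all cells, such as the adenine nucleotide carrier Slc25a5 of mitochondria or the sugar-nucleotide carriers of the Golgi. Others mark 1 organ, such as the thiazide-sensitive cotransporter of the distal kidney tubule, the bile acid importer of the hepatocyte or the transporters that clear neurotransmitters from synapses. The comparison asked how transporters of these kinds differed between Aire-deficient and wild-type cells. By lists drawn from textbook knowledge, 53 members were tissue-restricted, 73 housekeeping and 3 blood cell carriers, 2 were the adaptors and 22 stood in no list. The class of 5 listed members, Slc39a8, Slc23a2, Slc12a2, Slc7a8 and Slc22a18, was judged open to another reading, and class values without these 5 are given below. Other placements, such as that of the adenine nucleotide carrier Slc25a4 as tissue-restricted, were not varied.

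The single Aire probe set gave signals of 202, 297 and 211 on the Aire-deficient arrays, against 59.9, 96.4 and 138 on the wild-type arrays (log2 difference 1.33 ± 0.35 SE, limma adjusted p = 0.0873, and 0.0182 with the replicate number as a block). This higher signal runs against the label. Where its probes lie in the transcript is not known here, so it does not check the genotype, and every direction below rests on the arrays as labelled. Epcam, which G8.8 binds, and Cd80, which encodes B7.1, lay above the dim limit of 5.53 on all 6 arrays, while the medullary keratins Krt5 and Krt14 lay under it on all 6. Epcam itself gave 102, 79.8 and 86.9 on Aire-deficient arrays, against 234, 251 and 130 on wild-type arrays (log2 difference -1.14, limma adjusted p = 0.110, and 0.0295 with the block). Among 20 epithelial markers 17 lay above the limit throughout. Their summed signal was 7302 to 8258 on Aire-deficient and 5172 to 6130 on wild-type arrays, or 1664 to 1763 against 1478 to 1597 without H2-Aa, H2-Ab1, H2-Eb1 and Ctss, which antigen-presenting blood cells share. Epcam thus went against the sum of its own list. So did Cdh1, Cldn3, Cldn4 and Ctsl, with log2 differences of -0.23, -0.09, -0.15 and -0.47. The other 13 of the 18 tested markers were higher. Among them were Cd80, Cd86, Cd40, Ly75 and Relb, at 0.73, 1.17, 0.22, 0.82 and 0.54. Antigen-presenting blood cells can express these as well, and they stayed in the shorter sum, which is thus not a sum of epithelial genes alone. The keratins Krt8 and Krt18 were higher too, at 0.37 and 1.04. Of 11 myeloid markers the sum was 222 to 255 against 287 to 409, and without Cd14 179 to 217 against 195 to 206. Of the 8 tested myeloid markers 4 were lower and 4 higher. Lower were Mpo at -1.80, Cd14 at -1.68 (limma adjusted p = 0.0626, and 0.00595 with the block), Csf1r at -1.54 and Lyz2 at -0.02. Higher were Cd68 at 1.65 (limma adjusted p = 0.0661, and 0.0234 with the block), Fcgr3 at 0.57, Ptprc at 0.56 and Itgax at 0.48. The sum of 6 B cell markers was 114 to 133 against 62.5 to 101, and without Blk 50.9 to 73.0 against 38.2 to 51.9. The groups overlapped in the myeloid sum without Cd14 and in the B cell sum without Blk. Of the 4 tested B cell markers 3 were higher and 1 lower. Pax5 was at 2.17 (limma adjusted p = 0.121, and 0.0306 with the block), with no overlap of the groups. Blk was at 1.30 and Cd79b at 0.47, against Ms4a1 at -0.59. The overlap without Blk thus does not show that B cell markers were level between the groups. Sums of 13 T cell, 5 erythroid and 9 fibroblast and endothelial markers overlapped between the groups, and Cd3e, Rag2, Ptcra, Itgam and Elane lay under the limit on all 6 arrays. The 3′ over 5′ signal ratio of beta-actin, a sign of RNA quality, was 4.38, 5.75 and 13.4 on Aire-deficient arrays 1 to 3, against 5.42, 95.8 and 13.8 on wild-type arrays 1 to 3. Wild-type array 2 stood apart, and in each same-numbered pair the wild-type array had the higher ratio. The part of these differences in the results below was not tested.

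Of the 153 solute carrier genes, 109 lay above the dim limit on at least 3 of 6 arrays and were tested, and 44 were not, 23 of them under the limit on every array. Slc6a13 alone passed the adjusted threshold of 0.05 in limma, lower in Aire-deficient cells. That is 0.917% of the tested carriers, against 1.33% of all 5950 genes tested. None was called higher, against 0.387% of all genes, and 2 were higher at an unadjusted p under 0.05 (1.83%, against 6.82% of all genes). At that unadjusted level 13 carriers were lower (11.9%, against 8.32% of all genes). With the replicate number as a block 4 members were called lower, the carriers Slc6a13, Slc39a8 and Slc35e4 and the adaptor Slc9a3r1 (3.67%, against 3.7% of all genes), and Slco5a1 was called higher (0.917%, against 2.59%). The share of members called was thus near or under that of all genes in both fits. Of the members called, Slc39a8 and Slc35e4 passed the dim filter through their wild-type arrays alone. Counts and medians over the tested carriers here and below include the 2 adaptors and Slc4a1ap.

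In all, 71 of 109 tested carriers (65.1%) were lower in Aire-deficient cells, against 47.1% of all genes tested. The median log2 difference was -0.22 over the carriers and 0.05 over all genes. It was -0.11 against 0.18 on the values as deposited. Without wild-type array 2 it was -0.10 against 0.03, with 58.3% of carriers lower, or -0.20 against 0.02 with the genes tested on 6 arrays kept. The 3 Aire-deficient arrays all lay below the 3 wild-type arrays for 18 carriers (16.5%, against 10.7% of all genes) and all above them for 5 (4.59%, against 10.6%). On the values as deposited these shares were 9.43% of 106 carriers, against 7.72% of all genes, and 3.77%, against 14.3%. The 61 carriers above the limit on all 6 arrays had a median of -0.20, against 0.05 for the 4306 such genes, and the other 48 had -0.33, against 0.04 for the rest of the tested genes. In the plot of difference against signal the carriers are spread through the cloud of all genes and stay short of its outer edge on both sides.

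**Figure D1:**
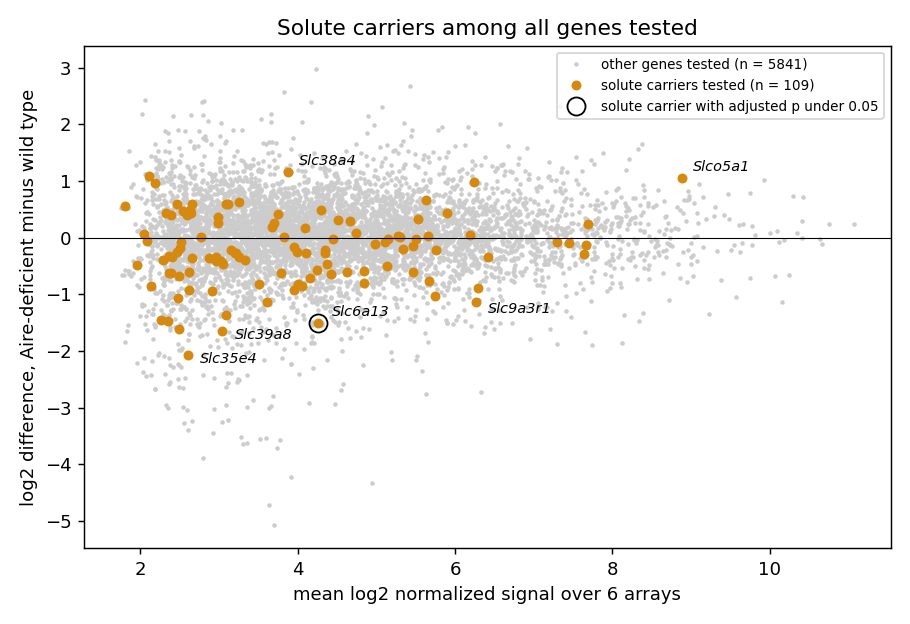
Log2 difference, Aire-deficient minus wild type, of each tested gene (vertical axis) against its mean log2 normalized signal over 6 arrays (horizontal axis). Grey points are other genes and orange points the 109 tested solute carriers; the ringed point is Slc6a13, the carrier with an adjusted p under 0.05, at -1.51.

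Slc6a13 encodes a sodium- and chloride-coupled transporter of GABA and taurine that is known from liver, kidney and the coverings of the brain. Its probe set gave 9.97, 10.9 and 13.3 on the Aire-deficient arrays, against 28.7, 30.1 and 38.5 on the wild-type arrays. The groups did not overlap, and each group's own arrays lay close together (SD 0.21 and 0.23 on the log2 scale). The signal was 2.85-fold lower in Aire-deficient cells, a log2 difference of -1.51 ± 0.31 (SE), with a limma adjusted p of 0.0406, and of 0.0118 with the replicate block. The call did not hold in every setting: the adjusted p was 0.0894 without the filter on dim genes, 0.0524 without a variance trend, and 0.0755 to 0.175 when any 1 array was left out. The difference kept its direction in every one of these settings, at -1.59 without wild-type array 2. Slc6a12, the betaine and GABA transporter gene next to it on chromosome 6, lay under the dim limit on all 6 arrays.

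Slc39a8 encodes a zinc importer that also carries manganese and cadmium. Its signals were 5.10, 5.43 and 3.62 in Aire-deficient cells, all under the dim limit, against 17.1, 13.7 and 13.3 in wild-type cells. The groups were well apart, a difference of at least 2.64-fold against the limit that bounds the Aire-deficient signal. The fitted log2 difference was -1.65 ± 0.38 (SE) with a limma adjusted p of 0.0626, which missed the threshold, and 0.0323 with the replicate block.

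Slc35e4 belongs to a family of which several members carry nucleotide sugars into the Golgi; what Slc35e4 itself carries is not described here. It gave 3.62, 1.47 and 3.95 in Aire-deficient cells, against 8.73, 13.1 and 16.9 in wild-type cells. Again all Aire-deficient signals lay under the dim limit and all wild-type signals over it, a difference of at least 2.25-fold. The fitted log2 difference, with 1 value raised to the floor of 1.8, was -2.08 ± 0.51 (SE), the most negative of any tested carrier, with a limma adjusted p of 0.0732 and of 0.0362 with the block.

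Slc38a4, a sodium-coupled amino acid transporter known from the liver and, in the mouse, from genomic imprinting, went the other way. Its signals were 32.1, 20.7 and 15.8 in Aire-deficient cells, against 9.75, 11.2 and 8.60 in wild-type cells. All 6 lay above the dim limit, with no overlap of the groups. A log2 difference of 1.16 ± 0.36 (SE) was the most positive of any tested carrier but missed the threshold in both fits (limma adjusted p = 0.144, and 0.0581 with the block). Its neighbour Slc38a2, a widely expressed amino acid transporter, had a log2 difference of 0.03.

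The promoters of these 4 genes are shown because, among the carriers, the first 3 have the lowest limma p-values of those lower in Aire-deficient cells and Slc38a4 the lowest of those higher. Each sequence runs from 250 bases before to 50 bases after the first listed start in RefSeq on GRCm38.p6, 5′ to 3′ on the strand of the gene; capitals mark a GC box (GGGCGG) or a CCAAT box (CCAAT) read on either strand, and a TATA box (TATAAA) was searched as well. They lie at chr6:121300038-121300337 (Slc6a13, plus strand), chr3:135825029-135825328 (Slc39a8, plus strand), chr11:3914615-3914914 (Slc35e4, minus strand) and chr15:97055907-97056206 (Slc38a4, minus strand).
Slc6a13: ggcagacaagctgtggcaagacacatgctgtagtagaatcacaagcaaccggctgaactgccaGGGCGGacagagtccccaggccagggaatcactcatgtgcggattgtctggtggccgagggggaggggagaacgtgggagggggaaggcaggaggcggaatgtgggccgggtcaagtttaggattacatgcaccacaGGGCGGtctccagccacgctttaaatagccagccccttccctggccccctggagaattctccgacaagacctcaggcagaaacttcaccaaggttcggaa
Slc39a8: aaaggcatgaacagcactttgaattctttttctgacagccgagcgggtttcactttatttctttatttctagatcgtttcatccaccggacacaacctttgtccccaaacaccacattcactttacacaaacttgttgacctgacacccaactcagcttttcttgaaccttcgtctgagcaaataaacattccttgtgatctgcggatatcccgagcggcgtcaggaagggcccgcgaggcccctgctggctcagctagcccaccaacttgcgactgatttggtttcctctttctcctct
Slc35e4: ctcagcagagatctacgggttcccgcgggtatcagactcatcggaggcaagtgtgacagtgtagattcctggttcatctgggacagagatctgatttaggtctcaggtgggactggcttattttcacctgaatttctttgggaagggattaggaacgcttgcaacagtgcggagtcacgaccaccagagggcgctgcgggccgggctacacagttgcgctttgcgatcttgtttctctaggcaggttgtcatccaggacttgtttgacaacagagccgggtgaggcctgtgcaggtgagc
Slc38a4: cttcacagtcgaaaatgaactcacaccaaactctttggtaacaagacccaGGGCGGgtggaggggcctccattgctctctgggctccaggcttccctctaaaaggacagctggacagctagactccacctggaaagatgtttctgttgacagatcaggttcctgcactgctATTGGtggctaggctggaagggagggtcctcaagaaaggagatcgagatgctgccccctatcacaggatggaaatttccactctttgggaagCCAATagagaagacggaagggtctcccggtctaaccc
Slc6a13 held 2 GC boxes, Slc38a4 1 GC box and 2 CCAAT boxes, and neither Slc39a8 nor Slc35e4 held any of the motifs. Such a match is a description of the letters in this window.

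Promoters were listed for 124 of the 153 members, and in these the classes differed in base composition. The ratio of observed to expected CpG, which is high in CpG islands, had a median of 0.385 in 43 tissue-restricted carriers and 0.767 in 58 housekeeping carriers, against 0.389 in all 27025 genes listed. A GC box was present in 46.5% of the tissue-restricted and 87.9% of the housekeeping promoters, against 35.9% of all. A TATA box was present in 11.6% and 5.17%, against 14.2%, and a CCAAT box in 25.6% and 36.2%, against 37.9%. Slc6a13, at 0.429, and Slc38a4, at 0.238, lay near or under the tissue-restricted median. The housekeeping members Slc39a8, at 0.741, and Slc35e4, at 0.606, lay nearer to the housekeeping one.

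Carriers of kidney, gut and liver epithelium formed the largest tissue group, with 20 of 33 tested. Of these 15 were lower and 5 higher in Aire-deficient cells, with a median log2 difference of -0.40, and Slc6a13 was the one called. Slc12a3, the thiazide-sensitive sodium chloride cotransporter of the distal kidney tubule, gave 3.15, 4.25 and 1.05 in Aire-deficient cells, against 8.64, 8.77 and 6.62 in wild-type cells. Slc6a18, which reclaims amino acids in the kidney, gave 3.25, 1.57 and 4.83, against 5.87, 11.1 and 9.36. For both, the dim limit of 5.53 separated the groups completely, a difference of at least 1.44-fold for Slc12a3 and at least 1.53-fold for Slc6a18. Neither passed the limma test (fitted log2 difference -1.46 ± 0.55, adjusted p = 0.237, and -1.48 ± 0.56, adjusted p = 0.248).

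Slc10a1, the sodium-coupled bile acid importer of hepatocytes, showed the opposite order. It gave 7.38, 5.67 and 5.90 in Aire-deficient cells, just above the dim limit, against 4.25, 1.30 and 3.33 in wild-type cells. The difference was at least 1.13-fold, with a fitted log2 value of 1.09 ± 0.58 (SE) that missed the limma threshold (adjusted p = 0.416). Its 2 other probe sets stayed under the limit on every array and could not check it. The remaining tested kidney, gut and liver carriers lay between -0.94 (Slc22a12, the urate transporter of the kidney) and 0.47 (Slc34a1, the renal phosphate transporter).

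Of 15 carriers of the nervous system, eye and ear, 6 were tested, 4 lower and 2 higher, with a median log2 difference of -0.25 and none called. Slc6a15, a transporter of branched-chain amino acids and proline in neurons, gave 0.467, 5.67 and 3.30 in Aire-deficient cells, against 10.1, 8.77 and 10.7 in wild-type cells. The groups did not overlap, but the Aire-deficient arrays were spread widely about the limit (log2 difference -1.60 ± 0.54, limma adjusted p = 0.183). Slc4a3, the anion exchanger of brain and heart, had a log2 difference of -0.72 with overlapping groups (adjusted p = 0.405). Slc6a2, the noradrenaline transporter, at -0.47, and Slc1a2, the main glutamate transporter of astrocytes, at 0.43, turned sign when 1 array was left out. The second probe set of Slc6a2 gave -0.39.

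Among 5 carriers of muscle, heart, fat, endocrine and germ cells 3 were tested, all with negative differences and none called. Slc8a1, the sodium-calcium exchanger of the heart, gave 4.55, 2.78 and 6.97 in Aire-deficient cells, against 9.85, 6.06 and 10.1 in wild-type cells (log2 difference -0.92 ± 0.51, limma adjusted p = 0.433, and -1.24 to -0.57 when an array was left out). Slc25a4, the adenine nucleotide carrier of heart and muscle mitochondria, was bright on every array, at 198, 157 and 187 against 219, 223 and 219. Its groups did not overlap under quantile normalization, where the log2 difference was -0.29, but without it the difference was 0.04, both unscaled and after median scaling. Slc2a4, the insulin-responsive glucose transporter, had a log2 difference of -0.32 that was 0.36 without Aire-deficient array 1.

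The 3 carriers known from blood cells were all tested and none was called. Slc4a1, the anion exchanger of red cells, had a log2 difference of -0.62 and Slc11a1, the metal transporter of macrophage phagosomes, -0.35. Slc7a7, a light chain of the exchanger for basic and neutral amino acids, gave 69.3, 126 and 137 in Aire-deficient cells, against 49.5, 26.0 and 120 in wild-type cells, with overlapping groups (log2 difference 0.98 ± 0.51, limma adjusted p = 0.411). When an array was left out, Slc4a1 ranged from -0.94 to -0.30, Slc11a1 from -0.54 to -0.0058 and Slc7a7 from 0.46 to 1.57. The part of the cells that the myeloid and B cell markers above stand for was not tested.

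**Figure D2:**
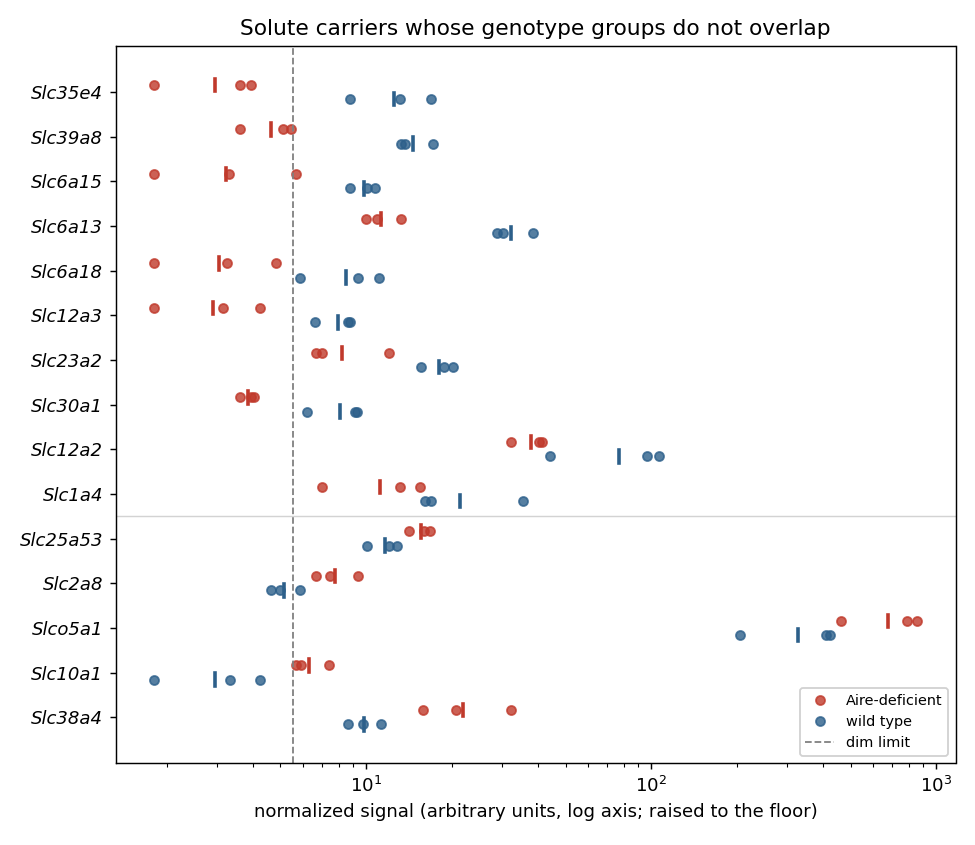
Normalized signal (log axis, arbitrary units) on each array of the 10 largest falls and, under the grey line, the 5 rises among carriers whose groups do not overlap; points are arrays, bars geometric means, Aire-deficient above wild type, the dashed line the dim limit of 5.53, and signals under the floor are drawn at 1.8. Slc6a13 lies at 9.97 to 13.3 in Aire-deficient and 28.7 to 38.5 in wild-type cells, while for Slc35e4, Slc39a8, Slc6a18, Slc12a3, Slc30a1 and Slc10a1 the dim limit runs between the groups.

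Housekeeping carriers of nutrients and ions at the plasma membrane were tested for 22 of 29 members, 16 lower and 6 higher, with a median log2 difference of -0.19 and none called. Slc23a2, the vitamin C transporter of most cells, gave 6.65, 12.1 and 6.97 in Aire-deficient cells, against 15.6, 20.1 and 18.8 in wild-type cells. Its groups did not overlap (2.19-fold, log2 difference -1.13 ± 0.36, limma adjusted p = 0.158). Slc12a2, the sodium-potassium-chloride cotransporter of secretory epithelia, gave 32.2, 40.2 and 41.5, against 106, 96.8 and 44.2, so that wild-type array 3 lay next to the Aire-deficient arrays (log2 difference -1.03 ± 0.37, adjusted p = 0.225).

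Slc44a1, a choline transporter, gave 63.4, 62.5 and 47.6 in Aire-deficient cells, against 80.6, 140 and 106 in wild-type cells (log2 difference -0.89 ± 0.31, limma adjusted p = 0.209). Slc1a4, a carrier of alanine, serine and cysteine, had 7.0, 15.5 and 13.1, against 16.1, 35.4 and 16.9 (log2 difference -0.92 ± 0.43, adjusted p = 0.346, and -1.14 to -0.56 when an array was left out). In both the groups stayed apart by a small gap. Slc3a2, the heavy chain that partners several amino acid exchangers, and Slc31a1, the copper importer, differed by only -0.10 and -0.13 on the log2 scale. These 2 were added to show little-changed members, after their values were seen.

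Carriers of mitochondria and peroxisomes were tested for 15 of 16 members, 9 lower and 6 higher, with a median log2 difference of -0.20 and none called. Slc25a1, the citrate carrier, gave 24.2, 25.9 and 20.3 in Aire-deficient cells, against 37.6, 36.7 and 31.9 in wild-type cells. The groups did not overlap (log2 difference -0.60 ± 0.29, limma adjusted p = 0.369), and its second probe set gave -0.26. Slc25a5, an adenine nucleotide carrier of most tissues, had a log2 difference of -0.82 (adjusted p = 0.277), but a second probe set of it gave 0.60. The mean of its probe sets gave -0.10, and leaving out an array -1.06 to -0.35. Its relatives are alike enough in sequence that probes may be shared. Slc25a39, a mitochondrial carrier linked to glutathione, had -0.77 with overlapping groups (adjusted p = 0.427), and -1.02 to -0.30 when an array was left out.

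Slc25a51, the mitochondrial NAD carrier, stood on the other side, with a log2 difference of 0.43 on the brighter probe set and 1.00 on the dimmer one. On the dimmer probe set the signals were 49.0, 39.2 and 38.3 in Aire-deficient cells, against 22.2, 16.2 and 25.8 in wild-type cells. These groups did not overlap, and with each probe set tested on its own the limma adjusted p was 0.173. Slc25a53, a carrier of the same family, also lay above its wild-type arrays throughout, at 16.7, 15.9 and 14.1 against 10.1, 12.9 and 12.1 (log2 difference 0.42 ± 0.31, adjusted p = 0.570).

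The carriers of the endoplasmic reticulum, Golgi, endosomes and lysosomes were tested for 14 of 16 members and centred on 0, with 6 lower, 8 higher and a median log2 difference of 0.02. Slc35e4, described above, stood far from the rest, which lay between -0.14 and 0.59. Slc35a2, the UDP-galactose carrier, and Slc33a1, which brings acetyl-CoA into the endoplasmic reticulum, both had 0.59, and Slc35e1, a relative of the nucleotide sugar carriers, had 0.49 on one probe set and 0.30 on the other. All 3 had overlapping groups and missed the limma threshold (adjusted p between 0.563 and 0.753). Leaving out an array gave 0.30 to 0.89 for Slc35a2, 0.32 to 1.01 for Slc33a1 and 0.019 to 1.00 for Slc35e1.

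All 12 metal carriers were tested, 9 lower and 3 higher, with a median log2 difference of -0.30 and Slc39a8 called with the block. Slc30a1, the zinc exporter of the plasma membrane, gave 4.03, 3.60 and 3.95 in Aire-deficient cells, against 9.13, 9.25 and 6.20 in wild-type cells, a difference of at least 1.46-fold (log2 difference -1.06 ± 0.46, limma adjusted p = 0.311). Thus a zinc importer and a zinc exporter were each under the dim limit on every Aire-deficient array and above it on every wild-type array. Slc11a2, the iron importer, gave 21.4, 20.1 and 18.6, against 27.9, 41.6 and 24.2, also without overlap (log2 difference -0.60 ± 0.32, adjusted p = 0.414; -0.49 on its second probe set). Slc39a6, a further zinc importer, had -0.80 with overlapping groups (adjusted p = 0.352).

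**Figure D3:**
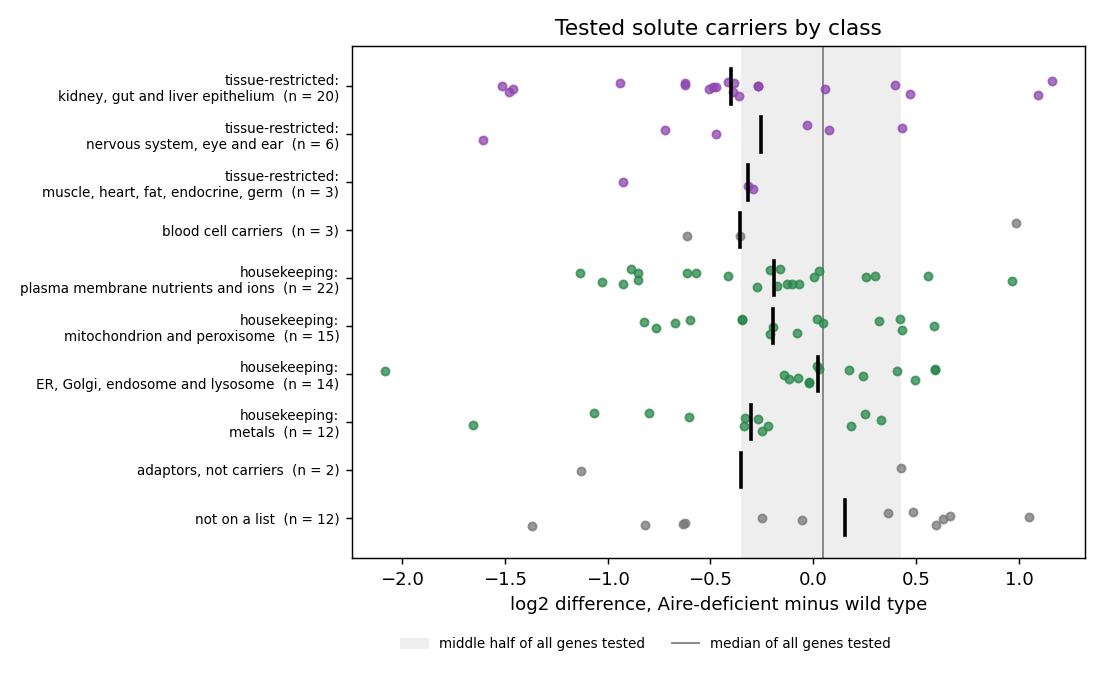
Log2 difference, Aire-deficient minus wild type (horizontal axis), of the 109 tested members by class (rows); each point is a gene, the black bar the median of its class, the grey band the range between the quartiles of all genes tested and the grey line their median of 0.05. Medians lie from -0.40 for kidney, gut and liver carriers to 0.02 for those of the endoplasmic reticulum, Golgi, endosomes and lysosomes, and 0.15 for unlisted members.

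The 29 tested tissue-restricted carriers had a median log2 difference of -0.39, with 22 lower and 7 higher, and the 63 tested housekeeping carriers had -0.14, with 40 lower and 23 higher. Both lay under the 0.05 of all genes tested. The tissue-restricted median was 0.44 below that of all genes and the housekeeping median 0.19 below it; the values relative to all genes were -0.53 and -0.18 on the values as deposited, and -0.53 and -0.19 after median scaling. Those scalings moved the median of all genes to 0.18, and with it the housekeeping median to 0.0046 on the deposited values and -0.0026 after median scaling, so that the sign of the housekeeping difference depends on the scaling. Without the filter on dim genes, over all 53 and 73 members, the medians were -0.36 and -0.10. Without wild-type array 2 they were -0.27 and -0.08. Leaving out the 5 members of open class gave -0.39 over 27 tested tissue-restricted and -0.12 over 60 tested housekeeping carriers.

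Detection was compared by class as well. Of the 53 tissue-restricted carriers, 22, 21 and 22 lay above the dim limit on the Aire-deficient arrays, against 30, 28 and 28 on the wild-type arrays. These counts did not overlap. Over all genes, quantile normalization and a limit set at a pooled percentile hold the share above the limit nearly level between arrays. That share, of all 8251 genes above the limit, was 68.0% to 69.1% on Aire-deficient and 68.6% to 69.7% on wild-type arrays. Of the 73 housekeeping carriers, 52, 54 and 60 were above it, against 59, 54 and 61, with overlapping counts. The tissue-restricted counts stayed apart on the values as deposited, at 22, 21 and 18 against 30, 29 and 25, and without wild-type array 2. On the deposited values the housekeeping counts were 51, 56 and 58, against 59, 54 and 59. The share of all genes above the limit was not computed in that setting, so the deposited counts stand without it. Without the members of open class the tissue-restricted counts were 20, 20 and 20 against 29, 27 and 26. On all 6 arrays 10 of 53 tissue-restricted and 43 of 73 housekeeping carriers lay above the limit, against 4306 of all 8251 genes. Whether the classes differ in these counts was not tested.

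Gene by gene, 19 of 53 tissue-restricted carriers (35.8%) lay above the limit on more wild-type than Aire-deficient arrays and 4 (7.55%) on more Aire-deficient ones. The same counts were 12 and 9 of the 73 housekeeping carriers, and 13.3% and 13.5% of all genes. Quantile normalization holds the share of all genes above the limit nearly level between arrays. The gene-by-gene counts over all genes were not made without it. A set of 5 of the 153 members lay above the limit on every wild-type array and on no Aire-deficient array: Slc12a3, Slc6a18, Slc30a1, Slc35e4 and Slc39a8 (3.27%, against 1.12% of all genes). By class these were 2 of 53 tissue-restricted and 3 of 73 housekeeping carriers. Slc10a1 was the single member with the reverse pattern (0.654%, against 0.424% of all genes). The set of 5 passed the filter on dim genes through the wild-type arrays alone, and Slc10a1 through the Aire-deficient arrays alone. The lists were drawn with earlier results of these arrays known, so these counts are given without a test.

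**Figure D4:**
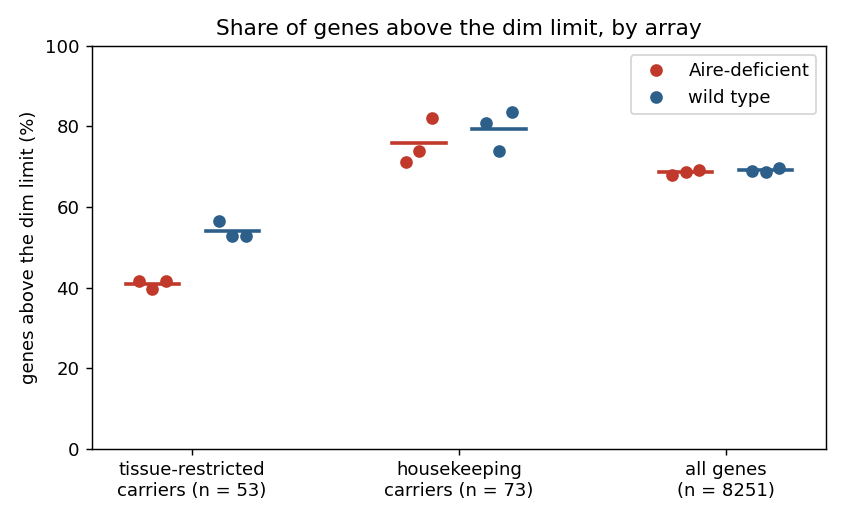
Share of genes above the dim limit (vertical axis, percent) on each array for 53 tissue-restricted carriers, 73 housekeeping carriers and all 8251 genes; points are arrays, bars group means, Aire-deficient left of wild type. Tissue-restricted carriers sit at 39.6% to 41.5% in Aire-deficient and 52.8% to 56.6% in wild-type cells, housekeeping carriers overlap, and all genes stay near 69%. Quantile normalization holds the share of all genes nearly level.

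Of the 44 members that were not tested, 24 were tissue-restricted, 14 of them under the limit on all 6 arrays. Such members included Slc18a3, the vesicular acetylcholine transporter, Slc6a3, the dopamine transporter, Slc32a1, the vesicular GABA transporter, and Slc2a2, the glucose transporter of liver and pancreatic beta cells. Another 5 untested members lay above the limit on 2 wild-type arrays and no Aire-deficient array (11.4% of the 44, against 5.65% of the 2301 untested genes). They were Slc12a5, the chloride extruder of neurons, Slc15a2, the peptide transporter of kidney, Slc2a3, the neuronal glucose transporter, Slc46a1, the folate transporter of the gut, and Slc7a3, a transporter of basic amino acids. Slc7a3 gave 2.83, 4.90 and 2.88 in Aire-deficient cells, against 6.62, 4.73 and 16.6 in wild-type cells, and Slc2a3 gave 2.25, 5.0 and 2.18, against 1.92, 7.63 and 10.5. The wild-type arrays thus disagreed among themselves in both. Slc16a8, the lactate exporter of the retinal pigment epithelium, was alone in the reverse pattern, above the limit on 2 Aire-deficient arrays and no wild-type array (2.27%, against 3.95% of untested genes).

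Slco5a1, a little-described member of the organic anion transporter family that stood in no list, gave 461, 789 and 857 in Aire-deficient cells, against 205, 422 and 408 in wild-type cells. The groups did not overlap, so that the Aire-deficient array was the higher one however the arrays are paired. On the log2 scale the difference was 1.05 ± 0.35 (SE), 2.07-fold, with a limma adjusted p of 0.179, and of 0.0159 with the replicate block. Slc9a3r1, an adaptor that ties membrane proteins to the cytoskeleton under the apical membrane of epithelia, gave 28.7, 51.3 and 94.7, against 60.7, 169 and 143. Its groups overlapped although every numbered pair was lower in the Aire-deficient array (log2 difference -1.13 ± 0.49, limma adjusted p = 0.313, and 0.0387 with the block). Its relative Slc9a3r2 had 0.43, and turned to -0.20 without wild-type array 2.

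Of the 12 tested members in no list, 6 were lower and 6 higher, with a median log2 difference of 0.15. Slc2a8, an intracellular glucose transporter, lay just above its wild-type arrays, at 9.32, 7.48 and 6.68 in Aire-deficient cells, against 5.87, 4.63 and 4.97 in wild-type cells (log2 difference 0.60 ± 0.43, limma adjusted p = 0.556).

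Several probe sets read the same gene for 28 members. Of their 33 further probe sets 14 were bright enough to test, and 11 had the sign of the one used for the gene. The exceptions were Slc23a3, a relative of the vitamin C transporters, Slc25a5 and Slc39a4, the zinc importer of the gut. With each of the 123 tested member probe sets on its own, Slc6a13 was again the single call, at an adjusted p of 0.0398 in limma.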

How the data were processed

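The authors deposited 1 linear signal intensity for each probe set and array; no source used here names the scanner software, background correction or scaling. From 12488 probe sets, 66 controls were removed. GEO's platform annotation names 1 gene for 10833 of the rest, several for 396 and none for 1193; only the first kind was named, so that 1 probe set shared by a pair of carriers stayed out. Of the named ones 10817 matched GRCm38.p6 in RefSeq by Entrez identifier.

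Because the trimmed means of the arrays differed (19.7 to 27.2), the deposited signals were quantile normalized, raised to the pooled 20th percentile (1.8) and taken to log2. The brightest probe set by mean log2 signal stood for a gene. To be tested, a gene had to exceed the pooled 40th percentile (5.53, the dim limit) on 3 or more of 6 arrays. The filter did not use the group labels, but a gene above the limit in 1 group alone was admitted by its bright group. Tests used limma 3.58.1 in R 4.3.3 (lmFit, eBayes with trend, 2-sided, Benjamini-Hochberg over 5950 genes, threshold 0.05). A fold is "at least" where 1 group lay under the dim limit throughout, and is then the geometric mean of the other group over that limit. Each group rests on 3 arrays, which limits the precision. The p-values set a difference against the spread within groups, in which pool, amplification and array cannot be told apart.

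Members and lists were chosen with earlier results of these data known. Named genes are the called carriers, the 10 largest falls and 10 largest rises without overlap between groups (5 such rises existed), and from each list the 4 tested members of smallest p; further genes were chosen after their values were seen. Array deviations from group means had correlations of 0.38, 0.21 and 0.19 within replicate numbers and of -0.26 to 0.08 across them. Every same-numbered pair thus passed the rule of exceeding 0.1. With 3 arrays in each group this does not show that the numbers pair the arrays, and what they stand for is not in the labels. Alternatives were other scalings, floor, filter, variance model, probe set rules, the replicate block and leaving out each array. Leaving out arrays with the 6-array genes kept, single probe sets, the members of open class and the detection counts were chosen after seeing the data. The limma fit was also run on simulated arrays with independent normal noise for each probe set. These held no correlation within replicate numbers and so do not check the fit on that point. RefSeq promoters were matched by Entrez identifier. Plots were made in Python 3.11.15 (matplotlib 3.10.9).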

Additional observations from a re-analysis of the deposited data

How the results depend on the processing

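Of the 36 members chosen by the naming rule, adaptors included, 24 could be fitted in all 19 alternatives, and 21 of these kept their direction in all of them. The other 12 passed the dim filter in 14 or more alternatives, and 10 kept their direction where fitted. In all, 13 of 654 alternative values turned sign. Slc25a4 turned to 0.041 on the deposited values and 0.043 after median scaling, Slc1a2 to -0.0014 with the floor at the pooled 40th percentile and -0.23 without wild-type array 1 (up to 0.82 without others), Slc2a4 to 0.36 without Aire-deficient array 1 and 0.12 without wild-type array 2 (down to -0.79), Slc6a2 to 0.24 without Aire-deficient array 3 (down to -0.89), and Slc9a3r2 to -0.20 without wild-type array 2 (up to 1.06). The number of members called lower was 2 with the higher floor and with the mean of all probe sets (Slc39a8 beside Slc6a13), 4 with the replicate block (3 carriers and the adaptor Slc9a3r1) and 0 without the dim filter, where limma gave 16 at an unadjusted p under 0.05. Without a variance trend Slc39a8 was called and Slc6a13 was not. Leaving out an array gave 0 to 0 lower calls, with 6 to 14 members lower at an unadjusted p under 0.05. The number called higher was 1 with the replicate block. The tissue-restricted median ranged over -0.52 to -0.27 and the housekeeping median over -0.18 to -0.08 when an array was left out; the housekeeping median was 0.0046 on deposited values and -0.0026 after median scaling. For tissue-restricted carriers above the dim limit the Aire-deficient minus wild-type difference in the mean number per array was -7, and it was -8.67 after median scaling and -7.5 to -6.83 when an array was left out. The replicate block changed no other call among the named carriers. The causes of these changes were not tested. Many members lie near the dim limit of 5.53. A floor shortens differences only where signals lie under it. It was 1.8 in the main fit and stood at the pooled 40th percentile in the alternative with the higher floor.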
